A study of Homo sapiens with 12 samples.

Results

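Loss of FOXA1 was examined in LNCaP cells, an androgen-sensitive human prostate cancer line, by setting 3 knockdown libraries beside the 3 libraries of their own control. These 6 columns of the FOXA1 count table, with each gene symbol kept once, make up 6 of the 12 libraries in the series. The remaining 6 hold a TRIM28 knockdown and a separate control. Knockdown cells were treated with shRNA-FOXA1 and control cells with control shRNA, per the treatment labels, which are uniform within a group. The knockdown libraries were grouped by these labels and the control libraries by their titles, which read NC control for FOXA1 knockdown. The knockdown libraries are titled SH control for FOXA1 knockdown, which differs from their treatment label. The genotype labels are not uniform within a group. They name the controls WT-FOXA1, WT-FOXA2 and WT-FOXA3, and all 3 knockdown libraries as a knockdown of FOXA1. The TRIM28 libraries likewise carry gene numbers that differ between replicates. The count columns are headed NC and SI, and SI is not explained in the labels. All libraries carry batch label 1, so both groups share that label. The labels write the line as LACAP cell and the protocols as LNCaP, and the design text describes biological replicates, 3 per group. The time after delivery, the number of hairpins and the androgen content of the medium were not used here, since the labels do not give them. The design text names the purpose as finding the genes that FOXA1 regulates.

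FOXA1 is a forkhead transcription factor that binds its sites in closed chromatin through a winged-helix domain and makes them accessible to other factors, which is why it is called a pioneer factor. In luminal prostate cells it shares regulatory regions with other lineage factors such as GATA2 and HOXB13. It is also known from liver, lung, pancreas and breast, where FOXA factors act early in the formation of the tissue.

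Library totals in the 6 libraries ranged from 13293769 to 15152890 counts, and mitochondrial genes took between 3.82% and 4.45% of them. Levels below are CPM, the count relative to library size, scaled by the trimmed mean of M-values, and log2 fold changes are knockdown over control. A number alone in parentheses after a pair of levels is the log2 fold change. A gene is said to rise or fall only where edgeR's quasi-likelihood test, with p-values adjusted by the Benjamini-Hochberg method over all tested genes, gave an adjusted p under 0.05. Where values are given library by library, the groups did not overlap unless stated. Replicates of a group differed by more than sampling noise (chi-square per degree of freedom between 2.94 and 5.73). The first principal component of the 6 libraries held 72.4% of the variance. The summed level of 10 luminal markers, among them KLK2, FOLH1, KRT18 and EPCAM, was 4338 to 4405 CPM in the controls and 3033 to 3069 CPM in the knockdown, and all 10 were tested, of which 5 rose and 4 fell. The sum is lower in the knockdown, and its members KLK2 and FOLH1 are described below. The summed level of 24 endothelial, fibroblast and leukocyte markers was 42.8 to 45.4 CPM in the controls and 40.4 to 52.6 CPM in the knockdown. None of the 24 was at 0 in all 6 libraries. The filter on low counts was passed by 8 of them, but not by the defining markers PTPRC, CD3E, CDH5 and FAP. Of those 8, edgeR called 0, DESeq2 called 0, and 0 had an unadjusted p under 0.05, but without the third knockdown library 1 fibroblast marker was called down. COL1A1, a collagen chain gene, held the largest share of that sum, with 26.5, 25.8 and 23.3 CPM in the controls and 27.0, 30.1 and 26.5 CPM in the knockdown. In these bulk libraries fewer cells of a kind and less RNA per cell cannot be told apart.

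FOXA1 (ENSG00000129514, GRCh38 chromosome 14, 37589552 to 37596059, minus strand) stood at 596, 582 and 533 CPM in the controls and 167, 163 and 167 CPM in the knockdown (log2 fold change -1.79 with SE 0.049 and adjusted p = 3.15e-22, edgeR's quasi-likelihood test). The groups did not overlap, and the knockdown libraries lay close together. By the deposited FPKM values, which are set relative to transcript length, FOXA1 was the 270th, 279th and 312th most abundant gene in the controls and the 1254th, 1255th and 1250th in the knockdown. Its values were 169, 165 and 150.2 FPKM against 47.5, 46.8 and 47.6 FPKM. FOXA1 mRNA was thus reduced and still present in every knockdown library. Its paralogs FOXA2 and FOXA3 did not pass the filter on low counts.

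Promoter sequences are shown for 4 genes. In each direction they had the largest changes among called genes averaging 50 CPM or more and holding a match to the core of the forkhead motif in the 250 bases before the start. The matches searched were TGTTTAC and TATTTAC on both strands, shown in capitals, and the sequences are from RefSeq (GRCh38.p14), written 5′ to 3′ on the strand of the gene. GDF15 lies at chr19:18385908-18386157 (plus strand), TSC22D3 at chrX:107717063-107717312 (minus strand), TXNIP at chr1:145996580-145996829 (minus strand) and ID2 at chr2:8681806-8682055 (plus strand).
GDF15: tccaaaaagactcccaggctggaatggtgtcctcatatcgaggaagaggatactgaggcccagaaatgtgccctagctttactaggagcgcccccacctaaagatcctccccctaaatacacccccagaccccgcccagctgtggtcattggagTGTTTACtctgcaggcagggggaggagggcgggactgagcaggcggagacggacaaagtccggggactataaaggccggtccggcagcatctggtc
TSC22D3: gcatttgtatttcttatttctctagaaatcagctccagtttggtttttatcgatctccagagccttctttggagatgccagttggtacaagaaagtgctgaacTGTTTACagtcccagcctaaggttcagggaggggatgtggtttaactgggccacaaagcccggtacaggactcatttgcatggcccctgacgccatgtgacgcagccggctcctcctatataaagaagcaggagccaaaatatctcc
TXNIP: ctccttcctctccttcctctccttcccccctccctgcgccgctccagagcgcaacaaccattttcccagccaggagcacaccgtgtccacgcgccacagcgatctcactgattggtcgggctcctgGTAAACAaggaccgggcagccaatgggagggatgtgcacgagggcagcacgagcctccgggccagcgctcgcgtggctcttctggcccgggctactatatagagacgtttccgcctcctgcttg
ID2: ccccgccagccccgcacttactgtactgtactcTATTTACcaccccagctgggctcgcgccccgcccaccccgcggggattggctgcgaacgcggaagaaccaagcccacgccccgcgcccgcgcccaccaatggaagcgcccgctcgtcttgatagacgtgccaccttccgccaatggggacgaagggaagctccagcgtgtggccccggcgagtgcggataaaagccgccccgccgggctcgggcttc

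GDF15, a stress-induced cytokine of the TGF-beta family, fell with FOXA1, with 511, 455 and 422 CPM in the controls and 94.0, 110 and 101 CPM in the knockdown (log2 fold change -2.19 with SE 0.072 and adjusted p = 1.69e-12). Its match began 96 bases before the start. TSC22D3, the glucocorticoid-induced leucine zipper gene, also fell, with 319, 306 and 285 CPM in the controls and 88.9, 85.7 and 83.3 CPM in the knockdown (log2 fold change -1.82 with SE 0.053 and adjusted p = 1.28e-21). Its match began 147 bases before the start. TXNIP, which encodes a thioredoxin-binding arrestin that limits glucose uptake, rose, with 5.90, 6.49 and 5.93 CPM in the controls and 129, 103 and 75.8 CPM in the knockdown (log2 fold change 4.07 with SE 0.30 and adjusted p = 0.000343). Its match, on the opposite strand, began 124 bases before the start. Its knockdown libraries differed among themselves more than those of the other genes shown, and all lay above each control. ID2, an inhibitor of basic helix-loop-helix factors, rose from 18.8 ± 2.2 to 92.1 ± 4.9 CPM (2.29; mean ± SD, n = 3 per group, here and below), with a match 217 bases before the start. These genes were picked for display from both ends of the response after their changes were seen. Their directions therefore follow from the choice and carry no information on the motif.

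Across all 35116 promoter windows of 250 bases, 5.27% held TGTTTAC or TATTTAC on either strand. The share was 3.68% for windows of the 10787 tested genes that matched a promoter by symbol, 3.36% for genes called up, 4.36% for genes called down and 3.44% for genes not called. Among genes called and changed at least 2-fold it was 4.20% of 882 windows up and 7.03% of 555 windows down. TGANTCA, the core of the AP-1 motif, reads the same on both strands and no match to it can share a base with a forkhead match. It was held by 6.57% of all windows, 4.36% of windows of tested genes, 8.84% of the windows of genes up at least 2-fold and 5.23% of those down at least 2-fold. These shares are descriptions of the letters in the windows and carry no test.

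Most changes were small, and on this scale rises and falls were about equally frequent. CPM is relative and the scaling centres the log2 fold changes, so an even split follows in part from the scaling. Of 14953 tested genes, 7840 were called (52.4%), 3902 of them up (26.1%) and 3938 down (26.3%), at an adjusted p of 0.05 by edgeR's quasi-likelihood test, and the groups did not overlap in 8729 genes (58.4%). The median called gene rose 1.43-fold or fell 1.37-fold, and 1456 of the calls had a fold under 1.2. Called genes changed at least 2-fold in 853 cases up (5.7%) and 542 down (3.62%). Toward larger changes the split became uneven, with 168 genes between 4-fold and 8-fold up against 80 down, and 92 genes over 8-fold up against 8 down. Tested against a minimum fold of 1.2, 2259 genes were called up (15.1%) and 2046 down (13.7%), against 1.5-fold 944 (6.31%) and 536 (3.58%), against 2-fold 433 (2.9%) and 164 (1.1%), and against 4-fold 98 (0.655%) and 9 (0.0602%).

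The distribution was centred near 0, with a median log2 fold change of -0.02 over all tested genes and quartiles of -0.31 and 0.31. The scaling sets this centre, so a shift shared by most genes would not be seen. The upper tail of the distribution was longer: the 99th percentile was 2.58 and the first -1.68. Genes called up took 27.3%, 27.5% and 26.8% of all counts of the library in the controls and 37.7%, 38.2% and 37.4% in the knockdown. Genes called down went from 44.9%, 44.9% and 45.1% to 34.4%, 34.1% and 34.6%, while the genes not called held 27.6 ± 0.26% and 27.6 ± 0.16%. Since the calls came from the same libraries, these shares describe how much of the mRNA the calls cover and are no separate support. Genes up at least 2-fold made up 1.33% of the counts in the controls and 3.67% in the knockdown, so the large changes concerned a small share of the mRNA.

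**Figure D1:**
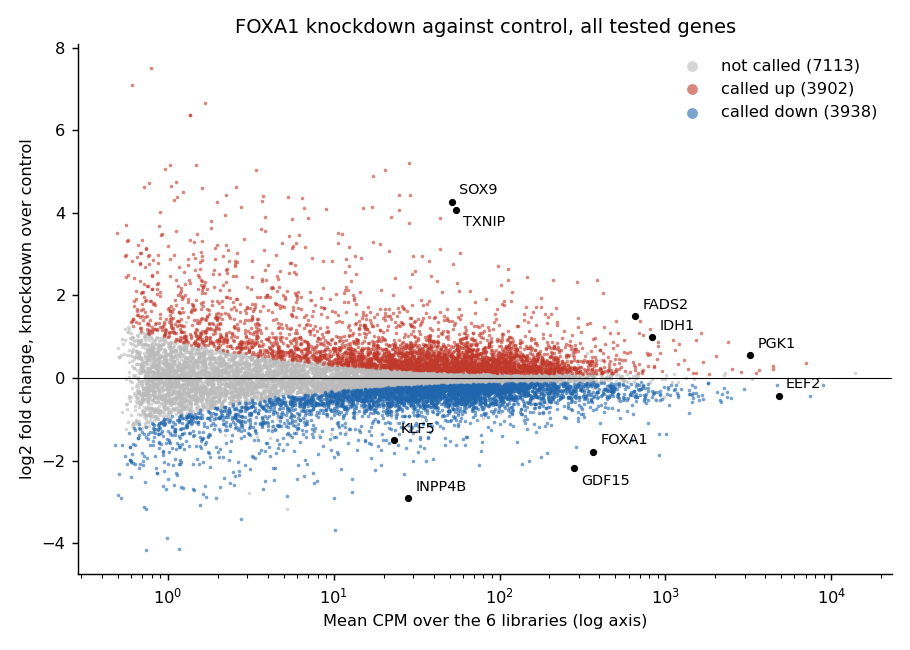
Each point is 1 of the 14953 tested genes, with the mean CPM over the 6 libraries on a logarithmic x axis and the log2 fold change of knockdown over control on the y axis. Red and blue points are the 3902 genes called up and the 3938 called down, grey points the 7113 not called, and the largest rises reach further from 0 than the largest falls.

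The share of genes called increased with expression level. Tested genes were divided by mean CPM into 5 bins of equal size. In the lowest bin 14.9% were called up and 10.9% down, and in the highest 35.4% and 36.8%. The median standard error of the log2 fold change fell over the same bins from 0.39 to 0.054, and the median absolute log2 fold change from 0.51 to 0.24. The lowest bin depended on the tool, with 9.33% up and 4.98% down by DESeq2. Rises of at least 2-fold were found in 368 genes of the lowest bin and 68 of the highest.

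**Figure D2:**
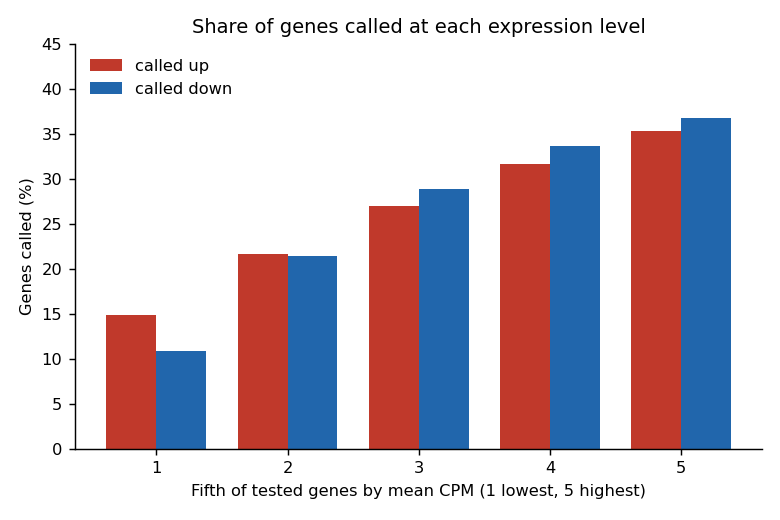
Bars give the percentage of genes called up (red) and down (blue) in each of 5 equal bins of the tested genes ordered by mean CPM, on an axis that starts at 0. Both shares increase from the lowest bin (14.9% and 10.9%) to the highest (35.4% and 36.8%).

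Shares called differed between bins of gene size, with no single order. In the bin of longest genomic span, again of 5, genes were called down in 35.3% and up in 25.5% of cases (median log2 fold change -0.08). In the second shortest bin the shares were 24.3% and 28.5% (median 0.02), and in the shortest 21.0% and 19.4% (median -0.05). In the bin of shortest exonic length 22.6% were called down and 15.5% up (median -0.09). Protein-coding genes split evenly, with 3567 up and 3531 down of 12379, whereas processed pseudogenes, intronless copies of other genes' mRNAs that can share reads with them, were called down in 97 and up in 22 of 362 cases (median -0.34). Across the autosomes and chromosome X, the share called down was lowest on chromosome 22, at 16.3% (58 of 355, with 106 up). It was 17.4% on chromosome 16 (116 of 666, with 182 up) and highest on chromosome 4, at 35.2% (185 of 525, with 106 up).

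The counts of gene groups given below can be read beside the 26.1% of all tested genes that rose and the 26.3% that fell. A gene that is low in 1 group passes the filter on low counts only through the other, where it is high. Of all tested genes 490 had a mean under 0.7 CPM in the controls and not in the knockdown, of which 272 rose, and 357 had the reverse, of which 160 fell. Group counts include such members, and their number is given where it is 3 or more in either direction.

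Among transcription factors of the luminal prostate lineage, members moved in both directions. Of 16 tested of 18 listed, 6 rose and 5 fell (3 and 5 against a minimum fold of 1.2), with a median log2 fold change of 0.09 against -0.02 over all tested genes. KLF5, a zinc finger factor of epithelial progenitors, had 35.3, 33.8 and 33.0 CPM in the controls and 9.72, 13.7 and 12.7 CPM in the knockdown (log2 fold change -1.50 with SE 0.11 and adjusted p = 1.35e-12). All 3 knockdown libraries lay below all 3 controls. SPDEF, an ETS factor of secretory epithelium, fell from 240.1 ± 31 to 106 ± 2.1 CPM (log2 fold change -1.19 with SE 0.082 and adjusted p = 1.62e-07).

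Against these falls, GRHL2, a grainyhead factor that maintains epithelial genes, stood at 323, 317 and 283 CPM in the controls and 499.9, 492 and 497 CPM in the knockdown (log2 fold change 0.69 with SE 0.048 and adjusted p = 7.94e-13). Its groups did not overlap. ELF3, an epithelial ETS factor, rose by 0.69 on the log2 scale and GATA2, a zinc finger factor, by 0.39. HOXB13, the prostate homeobox gene, had a log2 fold change of 0.18, a small rise that was not called against a minimum fold of 1.2.

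SOX9, a factor of epithelial progenitors and chondrocytes, showed a change of another order, with 4.31, 6.49 and 4.33 CPM in the controls and 99.6, 99.2 and 96.6 CPM in the knockdown (log2 fold change 4.27 with SE 0.10 and adjusted p = 3.15e-23). Of 7 tested SOX genes 4 rose and 0 fell by edgeR, with 0 falls at an unadjusted p under 0.05 and 0 by DESeq2. Of these rises 1 was of a member under 0.7 CPM in the controls alone, and without it 3 of 6 rose. SOX4, another progenitor factor, had a log2 fold change of -0.02 (adjusted p = 0.723). In the forkhead family 10 of 20 tested members rose and 6 fell, FOXA1 included (4 and 6 against a minimum fold of 1.2). FOXO3, a target of AKT that acts in stress and survival, rose from 161 to 266 CPM (0.72), whereas FOXP1 fell from 54.5 to 24.2 CPM (-1.17) and the cell cycle factor FOXM1 from 122 to 84.4 CPM (-0.54). Of 19 ETS factors 11 rose and 5 fell (median 0.51; 9 and 4 against a minimum fold of 1.2), with ELF1 up by 1.19 on the log2 scale and ELK4, a partner of serum response factor, down from 339 to 201 CPM (-0.75).

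SP6, a Krüppel-like factor of teeth and skin, rose from 3.58 ± 0.40 to 34.3 ± 2.6 CPM (log2 fold change 3.25 with SE 0.13 and adjusted p = 1.05e-18). The KLF and SP family as a whole split 6 up and 8 down of 21. KLF15, a glucocorticoid-responsive metabolic regulator, fell from 29.1 ± 1.9 to 10.3 ± 0.21 CPM (-1.50). KLF9, another glucocorticoid-responsive member, rose from 82.9 to 144 CPM (0.80). Homeobox gene DLX3, a regulator of skin and placenta, was close to absent in the controls, with 0.216, 0.401 and 0.380 CPM. It had 7.40, 7.02 and 7.19 CPM in the knockdown (log2 fold change 4.40 with SE 0.30 and adjusted p = 3.15e-13). DLX3 was named for a mean under 0.5 CPM in the controls and at least 5 CPM in the knockdown. It passed the filter on low counts only through the knockdown, so its rise and its p follow in part from the selection. FOSL2, an AP-1 subunit, was among the 6 rises with the smallest p, with 31.3, 31.6 and 29.6 CPM in the controls and 189, 208 and 185 CPM in the knockdown (log2 fold change 2.65 with SE 0.063 and adjusted p = 1.6e-23). TGIF1, a homeobox repressor of TGF-beta signalling, was among the 6 such falls, with 212, 221 and 233 CPM in the controls and 55.2, 49.1 and 52.9 CPM in the knockdown (log2 fold change -2.08 with SE 0.058 and adjusted p = 4.56e-22).

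Of 34 tested of 48 nuclear receptors, 14 fell (41.2%, against 26.3% of all tested genes) and 8 rose (23.5% against 26.1%), or 12 and 5 against a minimum fold of 1.2, and the median was 0.01. With all 12 libraries in 1 fit the rises called were 4. THRB, a thyroid hormone receptor, went from 69.0 ± 5.8 to 25.1 ± 1.1 CPM (log2 fold change -1.46 with SE 0.078 and adjusted p = 1.74e-15). ESRRG, an orphan receptor of oxidative tissues, fell from 10.2 ± 0.79 to 1.85 ± 0.52 CPM (-2.45). HNF4G, a receptor of gut and liver, fell from 14.9 ± 0.43 to 4.40 ± 1.1 CPM (-1.75) and NR3C2, the mineralocorticoid receptor, from 42.9 to 20.1 CPM (-1.09). VDR, the vitamin D receptor, rose from 14.7 ± 0.51 to 36.7 ± 2.2 CPM (log2 fold change 1.32 with SE 0.093 and adjusted p = 7.56e-13). Its dimer partner RXRA rose from 91.4 ± 8.3 to 175 ± 1.1 CPM (0.93).

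Genes known to be induced by androgen did not share a direction. Of 51 tested of 53 listed, 23 rose and 20 fell (14 and 16 against a minimum fold of 1.2), with a median of 0.06. SLC45A3, the prostein gene, gave 278, 304 and 259.5 CPM in the controls and 67.9, 76.7 and 77.9 CPM in the knockdown (log2 fold change -1.92 with SE 0.062 and adjusted p = 9.4e-19). The highest knockdown library lay well under the lowest control. The kallikrein gene KLK2 fell from 361 ± 7.1 to 285 ± 7.9 CPM (-0.34).

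In the opposite direction, FKBP5, a cochaperone of steroid receptors, stood at 294, 303 and 291 CPM in the controls and 639, 615 and 629 CPM in the knockdown (log2 fold change 1.08 with SE 0.044 and adjusted p = 2.27e-18). NDRG1, a differentiation gene that also responds to hypoxia, rose from 1047 ± 24 to 2215 ± 74 CPM (1.08). TSC22D1 rose from 129 ± 0.65 to 317 ± 3.4 CPM (1.29) and the basic leucine zipper gene MAF from 8.73 ± 0.85 to 50.7 ± 2.6 CPM (2.53). TMPRSS2, the serine protease gene whose promoter is often fused to ERG in prostate cancer, rose from 279 ± 4.4 to 338 ± 7.3 CPM (log2 fold change 0.28 with SE 0.045 and adjusted p = 6.34e-06). The call was not kept against a minimum fold of 1.2. ABCC4, a nucleotide and drug exporter, fell from 485 to 303 CPM (-0.68).

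**Figure D3:**
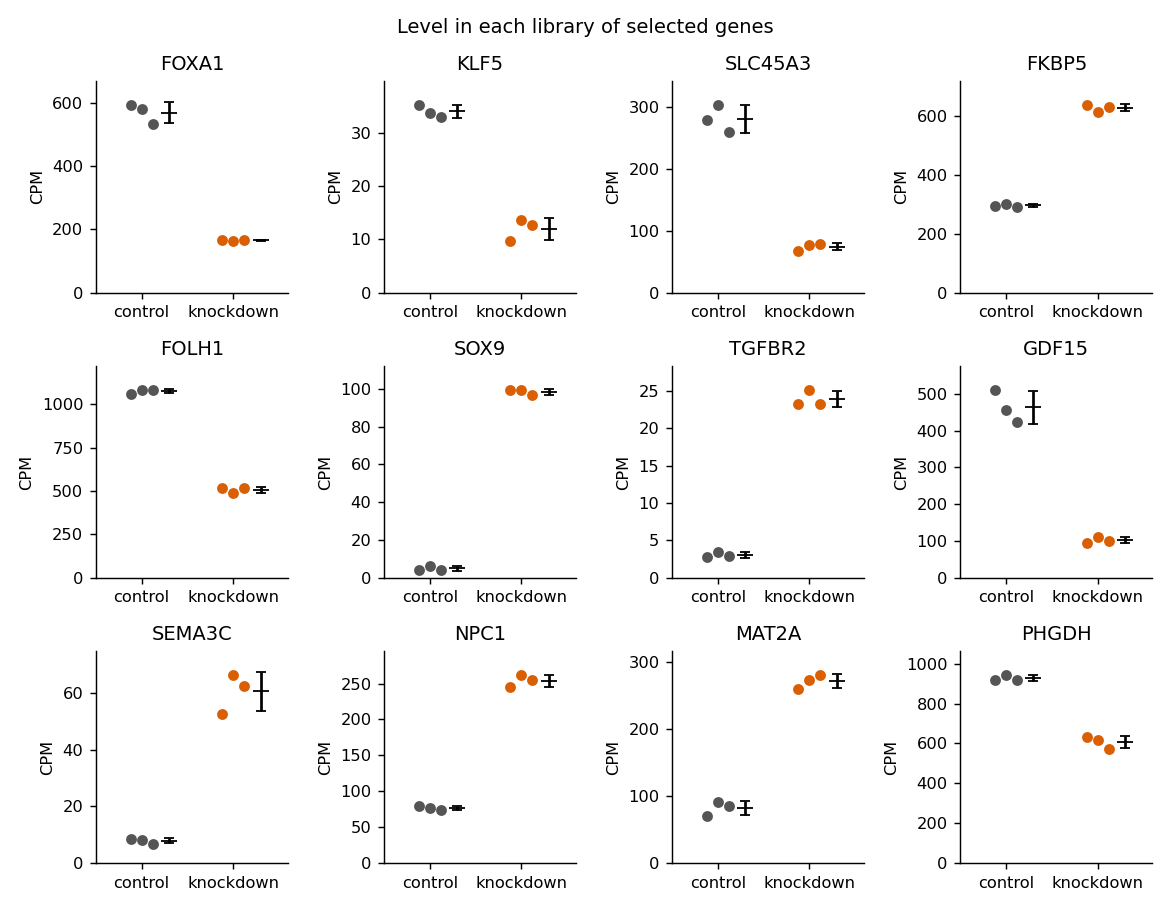
Points are the CPM of 12 genes in each of the 3 control (grey) and 3 knockdown (orange) libraries, and the mark beside each group is the mean with its SD; every axis starts at 0. In each of the 12 genes the groups do not overlap, with FOXA1, KLF5, SLC45A3, FOLH1, GDF15 and PHGDH lower and the others higher in the knockdown.

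Steroid glucuronidation genes fell together within 1 family. All 6 tested UGT2B genes, whose enzymes attach glucuronic acid to androgens for removal, fell. The median over the 9 tested genes of the role was -1.82 (6 down and 3 up, or 6 and 2 against a minimum fold of 1.2). Of these falls 1 was of a member under 0.7 CPM in the knockdown alone, and 1 rise was of a member under it in the controls alone. Without both, 5 fell and 2 rose of 7. UGT2B15 was measured at 34.7, 39.1 and 37.1 CPM in the controls and 10.8, 10.6 and 14.9 CPM in the knockdown (log2 fold change -1.61 with SE 0.11 and adjusted p = 9.84e-13). UGT2B17 was measured at 12.6, 13.4 and 14.3 CPM in the controls and 2.97, 1.94 and 2.16 CPM in the knockdown (log2 fold change -2.49 with SE 0.18 and adjusted p = 1.02e-12). Their groups did not overlap. The UGT2B genes are near-identical copies, so reads may have been shared among them and the value of a single member is uncertain. Among enzymes of steroid reduction and oxidation 6 rose and 6 fell of 14. Of the 9 rises in both roles, 3 were of members under 0.7 CPM in the controls alone. HSD11B2, which inactivates cortisol, rose from 27.4 ± 0.25 to 71.2 ± 8.1 CPM (log2 fold change 1.38 with SE 0.080 and adjusted p = 1.46e-14) and HSD17B11 from 13.1 to 33.8 CPM (1.37). HSD17B6, which acts on androstanediol, fell from 8.94 ± 1.0 to 2.63 ± 0.39 CPM (-1.77).

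Of 18 tested antigens on the surface of prostate cancer cells 10 fell and 5 rose (8 and 4 against a minimum fold of 1.2, 3 rises with all 12 libraries in 1 fit), with a median of -0.32. FOLH1, the gene of prostate-specific membrane antigen, fell, and its libraries gave 1059, 1083 and 1082 CPM in the controls and 518, 487 and 514 CPM in the knockdown (log2 fold change -1.09 with SE 0.043 and adjusted p = 1.26e-18). STEAP1, a metalloreductase family member, fell from 236 ± 12 to 163 ± 11 CPM (-0.54) and the choline transporter family gene SLC44A4 from 114 ± 4.2 to 73.3 ± 3.9 CPM (-0.63). CD24, a glycoprotein of epithelial progenitors, was higher in the knockdown, from 10.3 ± 0.95 to 30.6 ± 1.3 CPM (1.58).

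Zinc handling is a known trait of prostate epithelium, and 17 zinc transporter genes were tested, of which 6 rose and 6 fell. SLC30A4, which moves zinc into vesicles, showed the second smallest p among all falls, with 246, 239.8 and 242 CPM in the controls and 59.4, 60.9 and 59.7 CPM in the knockdown (log2 fold change -2.02 with SE 0.052 and adjusted p = 8.36e-23). The importer gene SLC39A8 fell from 186 ± 2.0 to 98.3 ± 1.3 CPM (-0.92). Over 218 tested solute carriers 59 rose and 76 fell (37 and 45 against a minimum fold of 1.2). These are 27.1% and 34.9%, against 26.1% and 26.3% of all tested genes. Members under 0.7 CPM in the controls alone gave 2 of the rises, from 4 such genes, and those under it in the knockdown alone 3 of the falls, also from 4. SLC7A2, a cationic amino acid transporter, fell from 119.5 ± 10.0 to 35.0 ± 1.1 CPM (-1.77), and SLC43A1, a large neutral amino acid transporter, from 189 ± 7.9 to 93.3 ± 5.3 CPM (-1.02). The creatine transporter gene SLC6A8 rose from 179 ± 6.4 to 418 ± 29.9 CPM (1.23).

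Genes of liver and other endodermal organs were mostly too low to test: 17 of 48 passed the filter, 5 rose and 5 fell. Without the second knockdown library 3 rose, and without the first control library 3 fell. AGR2, a disulfide isomerase of secretory epithelium, had 5.46, 5.95 and 6.38 CPM in the controls and 16.9, 14.5 and 15.2 CPM in the knockdown (log2 fold change 1.39 with SE 0.14 and adjusted p = 1.01e-09). CEBPA, a factor of liver and fat, rose from 5.55 ± 0.12 to 10.3 ± 1.7 CPM (0.90).

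In the TGF-beta and BMP pathway, more members rose than fell, with 26 up and 5 down of 46 tested of 56 listed (16 and 4 against a minimum fold of 1.2) and a median of 0.33. Among ligands, GDF15 fell as given above and BMP7 fell from 84.9 ± 9.0 to 58.0 ± 1.9 CPM (-0.55), while TGFB3 rose from 5.21 ± 0.99 to 8.77 ± 1.4 CPM (0.75). Of the receptors, TGFBR2, the ligand-binding receptor of TGF-beta, was measured at 2.73, 3.48 and 2.89 CPM in the controls and 23.3, 25.2 and 23.3 CPM in the knockdown (log2 fold change 2.97 with SE 0.14 and adjusted p = 1.13e-16). The groups lay far apart. TGFBR1 rose from 58.8 to 79.1 CPM (0.43).

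Of 18 signal mediators and inhibitors 11 rose and 2 fell, with 1 fall without the second control library. SMAD3, which carries the signal of TGF-beta, rose from 8.88 ± 0.40 to 21.6 ± 2.4 CPM (1.28). The inhibitory genes SMAD6 and SMAD7 rose from 39.6 ± 2.5 to 84.3 ± 6.0 CPM (1.09) and 10.1 ± 0.27 to 24.3 ± 1.1 CPM (1.26). Of 7 tested targets 5 rose and 0 fell by edgeR, with 0 falls at an unadjusted p under 0.05 and 0 by DESeq2. ID1, a BMP target, gave 53.1, 51.4 and 46.8 CPM in the controls and 182, 185 and 181 CPM in the knockdown (log2 fold change 1.86 with SE 0.058 and adjusted p = 5.35e-21), and ID2 is given above. ID3 had 200.2, 183 and 173 CPM in the controls and 188, 192 and 178 CPM in the knockdown (log2 fold change 0.00 with SE 0.054 and adjusted p = 0.949). The groups overlapped for ID3 and did not for ID1. ID4 rose from 12.8 ± 2.1 to 24.0 ± 1.5 CPM (0.90).

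Of 56 tested Wnt genes 20 rose and 11 fell, with a median of 0.13. Members under 0.7 CPM in the controls alone were 3, of which 2 rose. Without the first knockdown library 7 fell, and against a minimum fold of 1.2 the counts were 13 and 6. WNT7B, a ligand of epithelia, was the clearest of the ligands with 11.1, 10.0 and 10.0 CPM in the controls and 44.4, 51.0 and 47.3 CPM in the knockdown (log2 fold change 2.19 with SE 0.095 and adjusted p = 1.19e-17). FZD5, a receptor, fell from 93.2 ± 4.3 to 55.4 ± 0.69 CPM (-0.75) and FZD1 rose from 40.7 ± 2.2 to 70.0 ± 1.4 CPM (0.78). GSK3B, a kinase of the complex that marks beta-catenin for destruction, rose from 224 ± 2.7 to 332 ± 5.5 CPM (0.57) and CTNNB1, the beta-catenin gene, from 554 to 725 CPM (0.39).

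Of 28 tested Notch genes 12 rose and 6 fell, with 3 falls without the first knockdown library and 9 rises and 3 falls against a minimum fold of 1.2. NOTCH3, a receptor, had 27.5, 30.8 and 23.5 CPM in the controls and 84.6, 92.1 and 82.8 CPM in the knockdown (log2 fold change 1.66 with SE 0.081 and adjusted p = 7.43e-16). JAG1, a ligand, rose from 13.3 ± 2.1 to 23.3 ± 1.0 CPM (0.80). The target HES1 rose from 10.3 ± 0.74 to 32.6 ± 1.7 CPM (1.66). ADAM10, a protease that cleaves Notch receptors, rose from 213 ± 5.6 to 347 ± 4.7 CPM (0.71), and DTX4, a regulator of Notch, from 5.497 ± 0.63 to 21.0 ± 1.7 CPM (1.93).

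Hippo pathway genes included 16 that rose and 5 that fell of 33 tested of 37 (13 and 4 against a minimum fold of 1.2), with a median of 0.30. AMOT, an angiomotin whose protein holds the coactivators YAP and TAZ at junctions, was measured at 30.3, 33.4 and 28.5 CPM in the controls and 77.5, 83.0 and 72.7 CPM in the knockdown (log2 fold change 1.34 with SE 0.075 and adjusted p = 5.12e-15). AMOTL2, a related gene listed as a target, rose from 14.2 ± 0.20 to 52.7 ± 5.6 CPM (1.89). WWTR1, the TAZ gene, fell, with 17.0, 17.7 and 18.4 CPM in the controls and 2.64, 1.57 and 2.79 CPM in the knockdown (-2.91). LATS2, a kinase of the pathway, rose from 22.9 ± 1.7 to 39.6 ± 2.3 CPM (0.79).

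Receptor tyrosine kinase genes and their ligands were called up in 8 and down in 8 of 30 tested of 67, with 4 falls without the first or the second knockdown library and 5 rises and 2 falls against a minimum fold of 1.2. DDR1, a collagen receptor, rose from 90.5 ± 8.3 to 158 ± 4.1 CPM (0.80), INSR, the insulin receptor, from 49.2 ± 2.7 to 79.8 ± 1.2 CPM (0.70) and EGFR from 212 ± 9.2 to 307 ± 31 CPM (0.53). IGF1, a ligand, fell, with 32.0, 24.0 and 31.3 CPM in the controls and 6.61, 5.23 and 6.77 CPM in the knockdown (log2 fold change -2.22 with SE 0.13 and adjusted p = 4.34e-14). Feedback genes of the MAPK pathway split evenly, 5 up and 5 down of 15 (3 and 4 against a minimum fold of 1.2). The phosphatase gene DUSP2 rose from 18.9 ± 1.4 to 49.0 ± 1.9 CPM (1.38) and the inhibitor SPRED2 fell from 41.0 ± 5.4 to 25.3 ± 2.0 CPM (-0.70).

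In the PI3K and mTOR pathway 11 members rose and 7 fell of 35 (8 and 4 against a minimum fold of 1.2, 4 falls with all 12 libraries in 1 fit), with a median of 0.00. PIK3R3, a regulatory subunit of PI3K, had 49.97, 49.2 and 46.6 CPM in the controls and 172, 160.1 and 162 CPM in the knockdown (log2 fold change 1.76 with SE 0.058 and adjusted p = 1.7e-20). SGK1, a kinase that also responds to steroid hormones, rose from a low level with 1.44, 1.54 and 1.90 CPM in the controls and 30.4, 24.2 and 30.9 CPM in the knockdown (log2 fold change 4.13 with SE 0.16 and adjusted p = 1.1e-18). INPP4B, a phosphatase of PI3K lipid products, fell, with 49.3, 49.6 and 50.3 CPM in the controls and 6.61, 5.60 and 7.54 CPM in the knockdown (-2.91). PHLPP2, a phosphatase of AKT, rose from 11.7 ± 0.71 to 26.3 ± 0.60 CPM (1.17), PIK3IP1 from 4.79 ± 0.43 to 13.4 ± 0.75 CPM (1.48). DDIT4, a stress-induced inhibitor of mTOR, fell from 1036 to 719.8 CPM (-0.53).

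**Figure D4:**
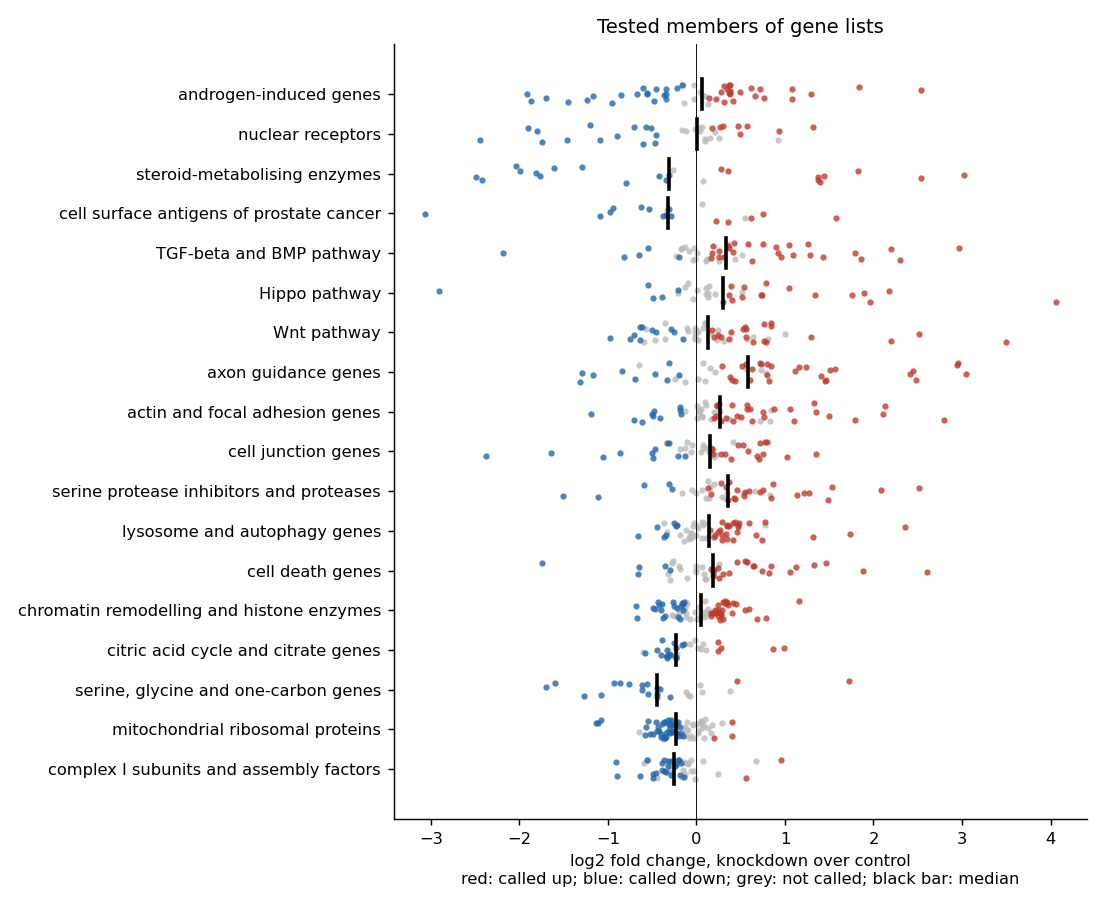
Each point is a tested member of 1 of 18 gene lists, with its log2 fold change of knockdown over control on the x axis and a small offset for legibility on the y axis; red points were called up, blue called down, grey not called, and the black bar is the median of the list. Medians run from -0.45 (serine, glycine and one-carbon genes) to 0.58 (axon guidance genes), and members lie on both sides of 0 in every list.

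Genes of axon guidance, which also act in epithelial migration and vessel growth, had the highest median among the lists drawn. Of 48 tested of 66 listed, 28 rose and 9 fell (24 and 6 against a minimum fold of 1.2), with a median of 0.58. Of 4 members under 0.7 CPM in the controls alone, all ligands, 3 rose, and without the 4 the counts were 25 and 9 of 44 with a median of 0.53. Of the ligands, SEMA3C, a secreted semaphorin known to be controlled by androgen, had 8.34, 8.23 and 6.76 CPM in the controls and 52.9, 66.6 and 62.6 CPM in the knockdown (log2 fold change 2.96 with SE 0.11 and adjusted p = 2.79e-19). SEMA3F rose from 18.3 ± 2.4 to 54.3 ± 1.1 CPM (1.57) and SEMA6A fell from 104 ± 0.95 to 57.7 ± 2.0 CPM (-0.84). Of the receptors, UNC5B, a netrin receptor, had 7.05, 6.56 and 6.99 CPM in the controls and 53.3, 54.4 and 51.3 CPM in the knockdown (log2 fold change 2.95 with SE 0.096 and adjusted p = 1.35e-20). NRP1, a coreceptor of semaphorins and VEGF, rose from 11.7 ± 1.1 to 65.2 ± 2.1 CPM (2.48) and EPHB2, an ephrin receptor, from 7.34 ± 0.91 to 39.4 ± 0.69 CPM (2.42).

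Of 54 tested actin and focal adhesion genes 27 rose and 10 fell (19 and 6 against a minimum fold of 1.2; median 0.26). PXN, the focal adhesion adaptor paxillin, rose from 23.9 ± 1.5 to 60.9 ± 4.3 CPM (1.35). GSN, the actin-severing protein gelsolin, had 17.6, 14.6 and 17.0 CPM in the controls and 52.7, 57.3 and 60.0 CPM in the knockdown (log2 fold change 1.79 with SE 0.087 and adjusted p = 1.95e-16). MYL9, a myosin light chain, rose from 7.21 ± 0.97 to 31.5 ± 2.2 CPM (2.13). ACTG1, cytoplasmic gamma-actin and the most abundant gene among those named in this list, fell from 2900 ± 18 to 2087 ± 47 CPM (log2 fold change -0.47 with SE 0.040 and adjusted p = 3.29e-11). Outside that list, CAPN2, a calcium-dependent protease that acts on adhesions, had the smallest p of all rises. It stood at 101, 96.1 and 95.4 CPM in the controls and 480.4, 488 and 488 CPM in the knockdown (log2 fold change 2.32 with SE 0.048 and adjusted p = 1.82e-24). RHOB, an endosomal small GTPase, came next, with 69.8, 68.8 and 66.8 CPM in the controls and 346, 356 and 356 CPM in the knockdown (log2 fold change 2.36 with SE 0.050 and adjusted p = 1.82e-24).

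Of 43 tested junction genes 17 rose and 11 fell (11 and 7 against a minimum fold of 1.2). The adherens junction gene CTNNA1, alpha-catenin, rose from 649 ± 8.8 to 969 ± 16 CPM (log2 fold change 0.58 with SE 0.042 and adjusted p = 1.24e-12). OCLN, the tight junction gene occludin, rose from 42.2 ± 0.74 to 72.3 ± 3.8 CPM (0.78). PKP4, a plakophilin, fell from 119.9 ± 1.5 to 86.6 ± 4.0 CPM (-0.47). COL17A1, a collagen of hemidesmosomes, was named as one of the genes under 0.5 CPM in the controls and at least 5 CPM in the knockdown. It had 0.431, 0.468 and 0.532 CPM in the controls and 7.07, 5.38 and 9.29 CPM in the knockdown (log2 fold change 3.91 with SE 0.30 and adjusted p = 5.53e-12). COL17A1 passed the filter on low counts only through the knockdown, so its rise and its p follow in part from the selection.

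Among proteases and their inhibitors 23 rose and 5 fell of 43 tested of 58 (18 and 3 against a minimum fold of 1.2), with a median of 0.36. Of 4 members under 0.7 CPM in the controls alone 3 rose, and without the 4 the counts were 20 and 5 of 39 with a median of 0.34. TIMP2, an inhibitor of matrix metalloproteases, gave 17.3, 17.1 and 16.9 CPM in the controls and 67.8, 76.4 and 73.0 CPM in the knockdown (log2 fold change 2.08 with SE 0.078 and adjusted p = 4.23e-19). SPINT1, an inhibitor of membrane-bound serine proteases, rose from 147 ± 7.3 to 248 ± 9.0 CPM (0.75). ST14, the matriptase gene and a protease that SPINT1 inhibits, rose from 153 to 205 CPM (0.42). MMP16, a membrane-bound metalloprotease, fell from 30.5 ± 0.76 to 10.7 ± 1.2 CPM (log2 fold change -1.51 with SE 0.11 and adjusted p = 7.82e-13). CTSC, a lysosomal cathepsin, fell from 47.3 ± 2.2 to 21.9 ± 1.8 CPM (-1.12).

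Of 57 tested lysosome and autophagy genes 27 rose and 7 fell, mostly by small amounts (median 0.14; 15 and 2 against a minimum fold of 1.2). TFEB, the transcription factor that drives lysosomal genes, had 15.6, 14.7 and 10.9 CPM in the controls and 72.9, 67.8 and 70.7 CPM in the knockdown (log2 fold change 2.36 with SE 0.094 and adjusted p = 9.38e-18). NPC1, which exports cholesterol from lysosomes, had 78.9, 76.4 and 74.4 CPM in the controls and 246, 262 and 255 CPM in the knockdown (log2 fold change 1.73 with SE 0.052 and adjusted p = 1.98e-21). ATP6V0D1, a proton pump subunit, rose from 89.2 to 152 CPM (0.77), and the autophagy genes OPTN and MAP1LC3B from 16.5 to 41.0 CPM (1.31) and 60.5 to 101 CPM (0.74). CLU, a secreted chaperone outside the list, was among the 6 rises with the smallest p, from 45.4 ± 2.6 to 249 ± 5.2 CPM (2.45).

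Enzymes of serine, glycine and one-carbon metabolism, which supply methyl groups and nucleotide precursors, formed the list with the lowest median of those drawn. Of 24 tested of 27, 16 fell and 2 rose (12 and 2 against a minimum fold of 1.2), with a median of -0.45. PHGDH, the first enzyme of serine synthesis, had 919.8, 945 and 921 CPM in the controls and 635, 617 and 572 CPM in the knockdown (log2 fold change -0.61 with SE 0.045 and adjusted p = 1.84e-12). PSPH, the last, fell from 99.1 ± 3.4 to 64.7 ± 2.1 CPM (-0.62). MTHFD2, the mitochondrial folate enzyme, had 259, 249 and 278 CPM in the controls and 121, 126 and 126 CPM in the knockdown (log2 fold change -1.08 with SE 0.051 and adjusted p = 1.01e-16). The cytosolic MTHFD1 fell from 222 ± 0.78 to 122 ± 11 CPM (-0.86) and CTH, which makes cysteine from cystathionine, from 25.4 ± 1.2 to 8.36 ± 0.53 CPM (-1.60). MAT2A, which makes the methyl donor S-adenosylmethionine, was the main exception, with 70.4, 91.2 and 84.6 CPM in the controls and 261, 273 and 281 CPM in the knockdown (log2 fold change 1.73 with SE 0.074 and adjusted p = 1.27e-11).

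Of 30 tested citric acid cycle and citrate genes 17 fell and 5 rose, by small amounts (median -0.23; 3 and 2 against a minimum fold of 1.2). SUCLG1, a succinate-CoA ligase subunit, fell from 152 ± 6.4 to 102 ± 7.3 CPM (-0.58) and SUCLG2 from 171 ± 2.3 to 129 ± 4.4 CPM (-0.40). The NADP-dependent isocitrate dehydrogenases went the other way, with IDH1 at 538, 573 and 557 CPM in the controls and 1163, 1057 and 1094 CPM in the knockdown (log2 fold change 0.99 with SE 0.045 and adjusted p = 3.83e-17). IDH2 rose from 158 ± 8.2 to 287 ± 7.7 CPM (0.86). Subunits of mitochondrial complex I and its assembly factors included 23 falls and 2 rises among 46 (median -0.25; 8 and 2 against a minimum fold of 1.2). NDUFV1 fell from 242 ± 6.5 to 172 ± 2.9 CPM (-0.49) and NDUFS1 from 241 to 188 CPM (-0.36). Of 76 mitochondrial ribosomal protein genes 43 fell and 3 rose (median -0.23; 13 and 2 against a minimum fold of 1.2). Leaving out a library gave 30 to 45 falls. MRPS35 fell from 243 ± 13 to 163 ± 7.4 CPM (-0.58) and MRPL3 from 278 to 207 CPM (-0.42).

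Translation initiation factors fell in 30 of 64 cases, among them EIF4B from 1128 ± 30.2 to 793 ± 2.9 CPM (-0.51), EIF2A from 245 to 149.9 CPM (-0.71) and EIF1 from 1062 to 795 CPM (-0.42), while 13 rose. Without the first knockdown library 7 rose and without the first control library 8, and against a minimum fold of 1.2 the counts were 4 up and 14 down. EIF4EBP2, which blocks the cap-binding factor, rose from 186 ± 11 to 345 ± 8.4 CPM (log2 fold change 0.89 with SE 0.049 and adjusted p = 4.14e-15). DEAD box helicases, many of which act in ribosome assembly, included 17 falls and 7 rises among 35 (median -0.24; 11 and 3 against a minimum fold of 1.2). DDX21, a nucleolar helicase, fell from 697 to 484 CPM (-0.53) and DDX6, of mRNA decay, rose from 248 to 481 CPM (0.96). Of 12 tested polyamine genes 6 fell and 3 rose. AMD1, which supplies the aminopropyl donor of polyamine synthesis, rose from 609 ± 26 to 930.4 ± 20.1 CPM (0.61), and SAT1, which starts polyamine breakdown, fell from 55.7 ± 3.8 to 26.6 ± 2.6 CPM (-1.06).

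Antioxidant genes split 13 up and 10 down of 33, with 6 falls without the first knockdown library and 6 rises and 2 falls against a minimum fold of 1.2. TXNRD1, thioredoxin reductase, had 756, 753 and 775 CPM in the controls and 1454, 1512 and 1377 CPM in the knockdown (log2 fold change 0.93 with SE 0.043 and adjusted p = 8.02e-17). HMOX1, heme oxygenase, rose from 71.0 ± 2.7 to 209 ± 30.4 CPM (1.56). Of the 2 subunits of glutamate-cysteine ligase, GCLM rose (log2 fold change 0.71) and GCLC fell (-0.58). Retinal dehydrogenase genes also divided, with ALDH1A1 down from 93.5 ± 6.0 to 30.4 ± 3.0 CPM (-1.62) and ALDH1A3 up from 18.4 ± 3.6 to 37.5 ± 2.1 CPM (1.03).

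Genes of chromatin remodelling and histone modification changed little in size: 29 of 72 rose and 20 fell, but 7 and 6 against a minimum fold of 1.2, with 12 falls when all 12 libraries entered 1 fit, and the median was 0.05. Of the SWI/SNF subunits among them 10 fell, but 5 without the first knockdown library, 6 without the second, the third or the first control library, and 1 against a minimum fold of 1.2. CBX2, a chromobox protein of Polycomb complexes, rose from 69.1 ± 6.8 to 111 ± 3.7 CPM (0.68). EZH2, the Polycomb methyltransferase, fell from 88.1 ± 3.7 to 65.0 ± 3.5 CPM (-0.44), and KDM6A, which removes the mark that EZH2 writes, from 311 ± 4.4 to 220.4 ± 6.7 CPM (-0.50). Among splicing regulators 9 rose and 13 fell of 30. CLK1, a kinase of splicing factors, fell from 126 ± 13 to 60.1 ± 2.9 CPM (-1.07), MBNL3 fell from 51.9 ± 4.3 to 23.4 ± 1.8 CPM (-1.15) and SRSF2 rose from 52.7 ± 2.9 to 93.4 ± 7.4 CPM (0.83).

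Of 25 tested death receptor and caspase genes and their inhibitors 15 rose and 0 fell by edgeR (8 up against a minimum fold of 1.2, and 9 up with all 12 libraries in 1 fit). A fall was called by DESeq2 in 0 of them and at an unadjusted p under 0.05 in 1, CASP9, and 1 fall was called without the second or the third control library. The inhibitors that rose included BIRC3, from 15.4 ± 2.1 to 42.3 ± 1.3 CPM (1.46), XIAP from 111 to 165 CPM (0.57) and the decoy receptor TNFRSF10D from 38.2 ± 2.6 to 96.0 ± 2.8 CPM (1.33). In the BCL2 family 7 rose and 5 fell of 20. The death-promoting BMF rose from 8.72 ± 1.5 to 53.2 ± 1.7 CPM (log2 fold change 2.60 with SE 0.10 and adjusted p = 8.18e-19). The protective MCL1 (0.64) and BCL2L1 (0.84) rose as well, while BCL2, also protective, fell (-0.65).

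Of 53 tested genes of ion channels and pumps 18 rose and 10 fell (14 and 4 against a minimum fold of 1.2), with 6 falls by DESeq2. Of 4 members under 0.7 CPM in the controls alone 2 rose. KCNN2, a calcium-activated potassium channel, fell, with 205, 194 and 181 CPM in the controls and 93.3, 88.2 and 92.6 CPM in the knockdown (log2 fold change -1.08 with SE 0.055 and adjusted p = 5.65e-16). KCNC4, a voltage-gated potassium channel, rose from a very low level with 0.791, 0.335 and 0.304 CPM in the controls. It had 10.1, 10.3 and 10.3 CPM in the knockdown (log2 fold change 4.40 with SE 0.26 and adjusted p = 2.27e-14). KCNC4 was named for a mean under 0.5 CPM in the controls and at least 5 CPM in the knockdown. It passed the filter on low counts only through the knockdown, so its rise and its p follow in part from the selection. CACNB3, a calcium channel subunit, rose from 18.8 ± 0.68 to 41.7 ± 0.45 CPM (1.15). ATP1B1, a subunit of the sodium pump, rose from 331 ± 1.3 to 711 ± 6.7 CPM (1.10).

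Among the most abundant genes the called folds were small. The called gene with the highest control level that rose was ENO1, the glycolytic enolase, with 6241, 6059 and 6097 CPM in the controls and 7751, 8271 and 7679 CPM in the knockdown (log2 fold change 0.37 with SE 0.040 and adjusted p = 8.53e-09). PGK1, another glycolytic enzyme, rose from 2630 ± 46 to 3843 ± 201 CPM (0.55) and the chaperone gene HSPA8 from 1644 ± 129 to 2373 ± 148 CPM (0.53). On the other side, EEF2, the translation elongation factor, had 5777, 5611 and 5231 CPM in the controls and 4125, 4228 and 4007 CPM in the knockdown (log2 fold change -0.43 with SE 0.042 and adjusted p = 1.07e-09). ATP5F1B, a subunit of ATP synthase, fell from 2740 ± 128 to 1987 ± 82 CPM (-0.46). Pseudogene copies of such genes may share their reads, which adds uncertainty to these values.

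Of abundant genes that changed between 2-fold and 4-fold, TFRC, the transferrin receptor, had 486, 537 and 459.5 CPM in the controls and 1166, 1089 and 1128 CPM in the knockdown (log2 fold change 1.19 with SE 0.050 and adjusted p = 2.75e-17). MAOA, a monoamine oxidase, rose from 388 ± 10.1 to 1009 ± 30.1 CPM (1.38). MKNK2, a kinase of the cap-binding factor, rose from 444 to 952 CPM (1.10). Falls of that size included PRUNE2 with 1494, 1428 and 1415 CPM in the controls and 563, 574 and 554 CPM in the knockdown (log2 fold change -1.36 with SE 0.043 and adjusted p = 5.86e-21). RASSF3, a RAS association domain gene, fell from 1312 ± 27 to 515 ± 18 CPM (-1.35), ENDOD1 from 932 ± 11 to 330 ± 13 CPM (-1.50) and CHPT1, a phosphatidylcholine synthesis enzyme, from 549 to 259 CPM (-1.09).

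A smaller part of the transcriptome could be shown to have stayed within narrow limits. The 95% interval of the log2 fold change lay within 1.2-fold of no change for 1973 genes (13.2% of those tested), 184 of them called, and within 1.5-fold for 7249. The 6 genes of at least 50 CPM with the tightest such limits were HNRNPM, CFL1, XPO1, CAPRIN1, FKBP8 and LRBA. XPO1, the nuclear export receptor, had overlapping groups with 271, 268 and 283 CPM in the controls and 276, 271 and 275 CPM in the knockdown (95% interval -0.09 to 0.09). CFL1, the actin-depolymerising cofilin, had an interval of -0.08 to 0.10. HNRNPM, a splicing factor, had an interval of -0.09 to 0.09 and CAPRIN1, an RNA-binding protein of stress granules, -0.10 to 0.08. FKBP8, a mitochondrial immunophilin, had -0.10 to 0.09 and LRBA, a vesicle trafficking protein, -0.10 to 0.10.

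The FOXA1 response was also set against that of the knockdown of TRIM28, which encodes a corepressor, in the other 6 libraries, which have controls of their own. TRIM28 mRNA had a log2 fold change of -2.01 (adjusted p = 0.00305) there. In the FOXA1 knockdown TRIM28 fell by a small amount (log2 fold change -0.19). That call was not kept against a minimum fold of 1.2 or with all 12 libraries in 1 edgeR fit (-0.18, adjusted p = 0.562). The difference between the effects was called for 1683 of 15921 tested genes (10.6%), 952 of them with a higher and 731 with a lower log2 fold change in the FOXA1 knockdown. Scaling by library size only gave 751 and 1126, so the split of directions depends on the scaling, and leaving out the third TRIM28 knockdown library gave 3528 called differences. Of 14498 genes tested in every fit, 1421 were called up in both knockdowns and 1461 down in both, with the TRIM28 knockdown alone calling 13.3% of its 14981 tested genes up and 13.3% down. FOXA1 itself fell in the TRIM28 knockdown as well, with a log2 fold change of -0.90 (adjusted p = 0.00550). Its deposited values were 166, 166 and 156 FPKM in the controls of that knockdown and 81.8, 73.9 and 118 FPKM in the TRIM28 knockdown. The third library, the one whose removal raised the count of differences, had the highest of the 3 knockdown values, and the groups did not overlap.

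Of the 3751 genes that rose in the FOXA1 knockdown and were tested in every fit, 706 had a difference called in the same direction, as did 514 of the 3913 that fell. CAPN2 differed by 2.05 (SE 0.13, adjusted p = 6.42e-08), and FAM111B, a protease gene that rose from 161 ± 6.4 to 675 ± 30.4 CPM, by 2.06 (SE 0.10, adjusted p = 2.53e-09). ATP1B1 differed by 0.94 (SE 0.077, adjusted p = 7.09e-07) and PRUNE2 by -0.67 (SE 0.088, adjusted p = 9.09e-05). In contrast, TFRC, which rose in both knockdowns, differed by 0.17 (SE 0.094, adjusted p = 0.282), and RASSF3, which fell in both, by -0.40 (SE 0.13, adjusted p = 0.0652), neither of them called.

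Calls in opposite directions were few, with 77 genes up in the FOXA1 and down in the TRIM28 knockdown and 51 the reverse. FADS2, a fatty acid desaturase, rose from 345 ± 17 to 973 ± 28 CPM in the FOXA1 knockdown and had a log2 fold change of -0.47 (adjusted p = 0.00453) in the TRIM28 knockdown, a difference of 1.98 (SE 0.099, adjusted p = 2.53e-09). FADS1, its neighbour and partner, differed by 1.65 (SE 0.11, adjusted p = 8.53e-08), FKBP5 by 1.37 (SE 0.094, adjusted p = 1.09e-07) and TMPRSS2 by 1.16 (SE 0.077, adjusted p = 8.53e-08). Among the reverse cases, RELN, an extracellular guidance protein, fell from 16.2 ± 1.2 to 10.3 ± 0.73 CPM and had a log2 fold change of 0.98 (adjusted p = 0.000887) in the other knockdown, a difference of -1.62 (SE 0.17, adjusted p = 1.28e-05). ACVR2B, an activin receptor, differed by -1.33 (SE 0.15, adjusted p = 2.78e-05), CLCN3, an endosomal chloride exchanger, by -0.995 (SE 0.088, adjusted p = 1.9e-06) and SMARCA5, a nucleosome-sliding ATPase, by -0.91 (SE 0.084, adjusted p = 2.54e-06).

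**Figure D5:**
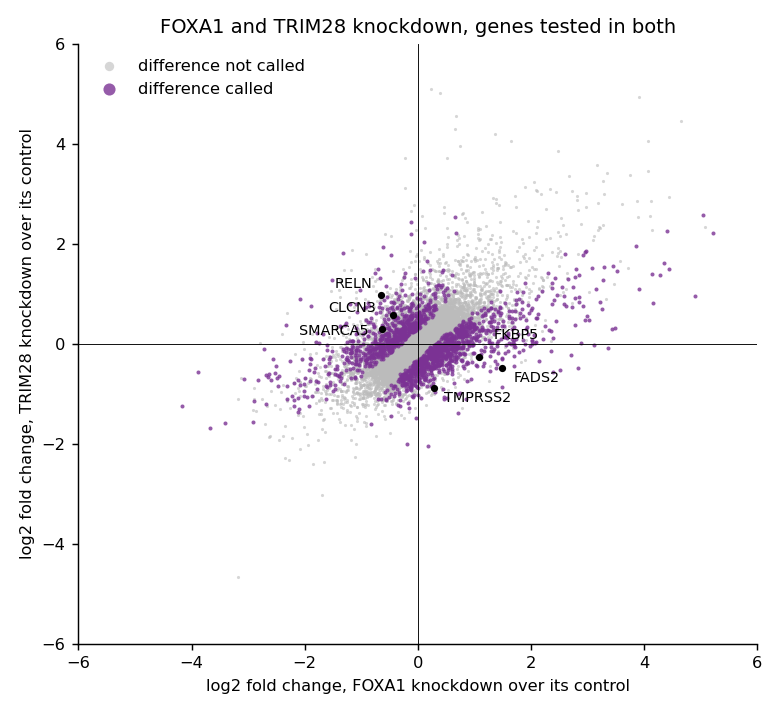
Each point is 1 of 14498 genes tested in every fit, with the log2 fold change in the FOXA1 knockdown on the x axis and in the TRIM28 knockdown on the y axis, each against its own control; purple points have a called difference. Named points lie in the quadrants of opposite direction, with FADS2 at 1.49 and RELN at -0.65 in the FOXA1 knockdown.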

How the data were processed

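Expression was measured by RNA-seq in 3 FOXA1 knockdown and 3 control libraries of LNCaP cells, with 6 further libraries of a TRIM28 knockdown and its control. The authors deposited 1 table of raw read counts per gene for each knockdown, with FPKM values, which are relative to transcript length and depth, beside them, per the file headers. GRCh38 (hg38) is the build, as named in the submitters' processing notes. Not given in the sources used here are the aligner, the counter and its strandedness, and the release of the annotation. Reads of a gene and its antisense partner, or of near-identical copies, may therefore not be told apart. The 62710 lines hold 60835 symbols, of which 453 stand on more than 1 line, and 4654 symbols have no Ensembl identifier. Lines of a repeated symbol hold identical counts, so each symbol was used once. Deposited FPKM values were used for the rank of FOXA1 and to check that they follow from the counts: the ratio of FPKM to CPM was the same in all libraries, within a relative tolerance of 0.001, for 11847 of 11847 genes compared.

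Counts were tested with edgeR 4.0.16 (R 4.3.3, limma 3.58.1): genes were kept by filterByExpr (minimum count 10, minimum total 15), scaled by the trimmed mean of M-values and fitted with the robust quasi-likelihood model on the 6 libraries without a block, with p-values adjusted by Benjamini and Hochberg's method and called under 0.05. The difference from the TRIM28 effect is a contrast over all 12 libraries. Standard errors were derived from the quasi-likelihood F statistic. Alternatives were DESeq2 1.42.0, other scalings and filters, a minimum fold of 1.2, all 12 libraries in 1 fit, the replicate number as a block and leaving out each library. Gene class and length came from GENCODE 29. In simulated counts for 14953 genes, the test of the FOXA1 comparison recovered 50% of genes changed 1.5-fold, 70% at 2-fold, 92% at 4-fold and 92% at 8-fold, 50 genes each. It called 161 genes in all, 9 of them unchanged. Far fewer genes were changed there than were called in the data, so these shares need not hold for the data. Python 3.11.15, pandas 2.3.3 and matplotlib 3.10.9 were used for summaries and figures.

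The members and lists were chosen with earlier results of these data known. Named genes are FOXA1, up to 5 members of each list role or family with the smallest p plus members that define the role, the 8 called genes each way with the highest control level, the 8 each way with the largest mean among log2 changes between 1 and 2, up to 6 genes each way under 0.5 CPM in 1 group and at least 5 CPM in the other, the 6 genes of at least 50 CPM with the tightest interval around 0, the 4 each way called in opposite directions in the knockdowns, and the 6 smallest p each way. TXNIP was named for its promoter after its values were seen, and ID3, SOX4, CASP9, CDH5, FAP, PTPRC and CD3E for context. Some genes that the rule selects are not reported here. Replicates are described as biological by the design text, and whether cultures were separate is not given beyond that.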

Additional observations from a re-analysis of the deposited data

Results flagged for a closer look

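The FOXA1 and TRIM28 knockdowns moved 12 of the genes named here in opposite directions, each called in both comparisons and each with a called difference by edgeR's quasi-likelihood test. FADS2, FADS1, TMPRSS2, FKBP5, CLCN3, SMARCA5, RELN and ACVR2B were named because they met this rule, so their place here follows from it. Among all 14498 genes tested in every fit, 77 were up in the FOXA1 and down in the TRIM28 knockdown and 51 the reverse. Higher with FOXA1 knockdown and lower with TRIM28 knockdown were FADS2 (difference of log2 fold changes 1.98), HSD11B2 (1.88), FADS1 (1.65), FKBP5 (1.37), IDH2 (1.28), TMPRSS2 (1.16), GATA2 (0.72) and HOXB13 (0.58). Lower with FOXA1 knockdown and higher with TRIM28 knockdown were RELN (-1.62), ACVR2B (-1.33), CLCN3 (-0.995) and SMARCA5 (-0.91). HOXB13 stood at log2 fold changes of 0.18 and -0.40 (adjusted p = 0.00592 and 0.00465). HSD11B2, whose enzyme inactivates cortisol, had 1.38 against -0.49, and IDH2, a mitochondrial isocitrate dehydrogenase, 0.86 against -0.41. GATA2 had 0.39 against -0.32, with an adjusted p of 0.0439 in the TRIM28 comparison, and FKBP5 had -0.27 there with 0.0485, so both were close to the threshold.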

How the results depend on the processing

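The count of called genes stood between 6257 and 7997 under DESeq2 (6558), the other scalings and filters, all 12 libraries in 1 fit (6257) and the replicate block (7997). Leaving out a library gave 7070 to 7637 genes in all, 3589 to 3799 up and 3437 to 3850 down. DESeq2 shared 6370 gene and direction pairs with the calls reported and the fit of all 12 libraries 6119. Against a minimum fold of 1.2 the counts were 4305 in all, 2259 up and 2046 down, and 708 for the difference between the knockdowns, since small folds no longer count. The difference gave 1937 genes by DESeq2, 1877 with library size only, 1597 with the replicate block and 1176 to 3528 without a library, the highest without the third TRIM28 knockdown library; the cause was not tested. Same-numbered control and knockdown libraries deviated together only weakly (r = -0.021, 0.013 and 0.10), the first knockdown library correlated best with the second control library (0.12), and the numbers were not taken as pairs. Genes near 0 changed sign. HNRNPM moved from -0.00304 to 0.004952 (DESeq2), 0.004642 (RLE size factors), 0.001679 (all 12 libraries), 0.00565 (at least 1 CPM in every library) and 0.01097 (library size only), and FKBP8 from -0.003747 to 0.003926, 0.003949, 0.001183, 0.005065 and 0.01019 in that order. CAPRIN1 had 0.005041 with library size only. Without a library the log2 fold change ran from -0.01354 to 0.02421 for HNRNPM, -0.0374 to 0.01991 for FKBP8, -0.02517 to 0.02166 for CAPRIN1, -0.01315 to 0.02276 for XPO1, -0.01279 to 0.02923 for CFL1, -0.02016 to 0.03074 for LRBA, -0.04521 to 0.06389 for ID3 and -0.07352 to 0.01679 for SOX4. Depth limits the 1 in 5 tested genes with the lowest levels, where the median standard error was 0.39.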

Other observations

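Host genes of small nucleolar RNAs, whose introns release the guide RNAs of ribosomal RNA modification, included 11 falls and 2 rises among 22, with a median log2 fold change of -0.50 (9 and 1 against a minimum fold of 1.2, and 1 rise without the third control, the first knockdown or the second knockdown library). SNHG8 fell from 36.4 ± 3.9 to 15.8 ± 2.1 CPM (log2 fold change -1.203 with SE 0.10 and adjusted p = 7.59e-11, edgeR's quasi-likelihood test), SNHG1 from 60.3 ± 4.3 to 37.9 ± 3.8 CPM (-0.67) and SNHG16 from 164 ± 5.8 to 112 ± 8.7 CPM (-0.55). Among long intergenic noncoding RNAs 33 rose and 23 fell of 176 tested of 2236 listed, and DESeq2 called 12 falls. Members under 0.7 CPM in the controls alone gave 11 of the rises, from 16 such genes, and those under it in the knockdown alone 6 of the falls, from 11. Without both kinds 22 rose and 17 fell of 149. LINC00632, the transcript that contains the circular RNA CDR1as, rose from 1.70 ± 0.39 to 19.5 ± 1.2 CPM (3.52). Of 380 antisense RNA genes 49 rose and 60 fell, with 32 and 39 by DESeq2. Members under 0.7 CPM in the controls alone gave 7 of the rises, from 28 such genes, and those under it in the knockdown alone 11 of the falls, from 25.

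Enzymes that start and extend mucin-type sugar chains and related glycosyltransferases included 16 rises and 8 falls among 32 (median 0.25). GALNT2, which adds the first sugar to serine or threonine, rose from 79.3 ± 3.8 to 239 ± 4.7 CPM (1.59), while GCNT1, which branches the chain, fell from 88.9 ± 3.0 to 31.7 ± 1.0 CPM (-1.48) and the sialyltransferase gene ST3GAL1 from 335 ± 5.1 to 172 ± 7.8 CPM (-0.96). Of the tetraspanins TSPAN13 rose from 103 ± 4.2 to 334 ± 14 CPM (1.70). Among 287 pathways of the annotation deposited with the counts that held at least 20 tested genes, the Hematopoietic cell lineage had the highest median at 0.72 (15 up and 4 down of 25), and the Ribosome the lowest at -0.38 (2 up and 81 down of 121). Aminoacyl-tRNA biosynthesis stood at -0.31 (2 up and 27 down of 40) and homologous recombination at -0.28 (2 up and 23 down of 37), while ECM-receptor interaction stood at 0.37 (26 up and 8 down of 52, of which 4 were under 0.7 CPM in the controls alone).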
